A study of Mus musculus with 9 samples.

Results

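Chemokine ligands and colony-stimulating factors were followed in D2.OR cells, an established mouse mammary tumor line, grown in 3D culture in 3 matrices. The genes were taken by symbol: every gene with a single symbol in the platform annotation that is Ccl or Cxcl followed by a number, together with Cx3cl1, Xcl1, Csf1, Csf2 and Csf3. That gave 37 members among 19938 genes. Levels are log2 RMA values from 9 Affymetrix arrays, 3 for each matrix: fibrillar collagen I, non-fibrillar collagen I and Matrigel, a basement membrane extract. The collagen groups are given by the titles and by the growth labels. The Matrigel group rests on its titles, because the growth label of its arrays carries the non-fibrillar collagen wording and the series design names only the collagen conditions. All groups share the cell line, and no other treatment is given in the labels. Nothing in the labels ties the replicates to separate cultures; the p-values therefore reflect only how much these arrays vary, and that variation may be technical.

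Chemokines are small secreted or membrane-tethered proteins that draw leukocytes along a gradient, and they act through G protein-coupled receptors. Colony-stimulating factors drive the growth, survival and maturation of macrophages and granulocytes. Epithelial and tumor cells are known to make several of both kinds, often under the control of NF-kB or of interferon signalling, while the receptors lie mostly on leukocytes.

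Detection calls were not used here, so a background line was set from genes that mammary cells are not known to express. The 1213 olfactory, vomeronasal and bitter taste receptor genes had a median of 3.66 log2 units, and the line was put at their 95th percentile, 5.19. A member was taken as near background when its mean lay at or under the line in all 3 groups. Of the 37 members, 21 lay above the line in at least 1 group and 16 lay near background; over all genes 70.1% lay above it. Cxcl14 was the closest member above the line, with its highest group mean 0.052 log2 units over it, and Ccl8 the closest under it, at -0.032. With the 90th percentile of the receptor genes as the line, 7 members were near background, and with the 99th percentile 22. Levels of different probe sets do not rank genes, so between matrices each member is compared only with itself. The background line does set probe sets of different genes against each other, so the split at the line is approximate.

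**Figure D1:**
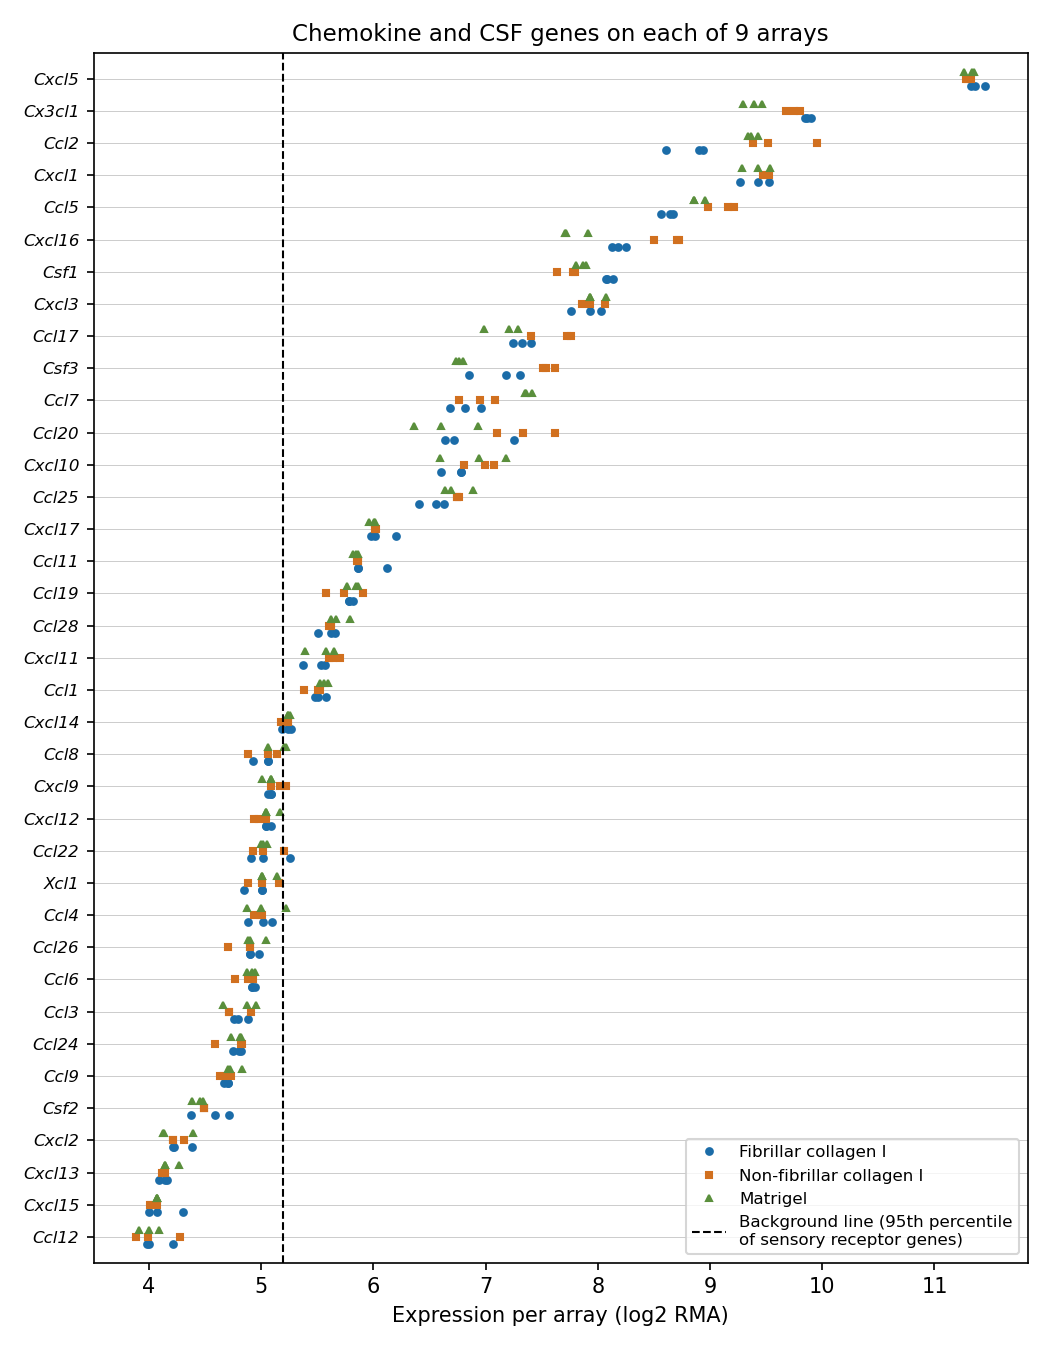
Expression of the 37 members on each of the 9 arrays (x axis, log2 RMA; 1 row per gene, ordered by the highest group mean) in fibrillar collagen I (circles), non-fibrillar collagen I (squares) and Matrigel (triangles). The dashed line is the background line at 5.19; 16 members have all 3 group means at or under it, and the groups separate most visibly for Ccl2, Ccl5, Cxcl16, Csf3, Ccl7 and Cx3cl1.

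Promoter windows from RefSeq (GRCm38.p6, from 250 bases before to 50 after the start of each gene) were at hand for 25 of the 37 members. They were searched on both strands for the NF-kB consensus, for the interferon-stimulated response element (TTTC, any 2 bases, TTTC) and for the AP-1 element TGANTCA. The other 12 members had no window and were not searched. Among them are Ccl2, Ccl5, Ccl7, Csf3 and Cxcl16, which passed in at least 1 comparison of the matrices. The NF-kB consensus was found in 7 members (Ccl9, Ccl20, Csf1, Cxcl1, Cxcl2, Cxcl3 and Cxcl10), and in 4.51% of all 32851 promoter windows. The interferon element was found in Ccl19, Cxcl10 and Cxcl14 (3.44% of all windows), and the AP-1 element in Ccl9, Ccl28, Cxcl9 and Cxcl10 (7.81%). A match describes letters in the window and does not show that a factor binds there. Cxcl1, Cxcl2 and Cxcl3, ligands of the neutrophil receptor Cxcr2 that lie next to each other or nearly so on chromosome 5, all carry the same run of 11 bases, GGGAATTTCCC, in which matches on both strands overlap. It begins 71, 97 and 73 bases before the start. The 250 bases before the start are shown for these neighbours and for Ccl20, Csf1 and Cxcl10, which all hold an NF-kB match. Of these 6 genes Csf1 and Ccl20 passed in at least 1 comparison of the matrices, Cxcl1, Cxcl3 and Cxcl10 passed in none, and Cxcl2 lay near background. The remaining member with an NF-kB match, Ccl9, also lay near background, and its window is not shown. Capitals mark NF-kB and, in Cxcl10, interferon element matches.
Cxcl1, chr5:90890995-90891244, plus strand: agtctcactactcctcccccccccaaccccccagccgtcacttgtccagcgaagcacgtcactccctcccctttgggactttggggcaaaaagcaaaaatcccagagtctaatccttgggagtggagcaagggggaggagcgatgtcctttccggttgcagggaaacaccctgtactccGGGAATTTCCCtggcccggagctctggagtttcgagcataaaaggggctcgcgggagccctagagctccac
Cxcl2, chr5:90903649-90903898, plus strand: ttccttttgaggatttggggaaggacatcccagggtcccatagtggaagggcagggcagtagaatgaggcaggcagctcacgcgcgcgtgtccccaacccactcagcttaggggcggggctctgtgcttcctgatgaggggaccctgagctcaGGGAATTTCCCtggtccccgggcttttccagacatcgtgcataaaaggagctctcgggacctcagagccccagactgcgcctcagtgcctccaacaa
Cxcl3, chr5:90785851-90786100, plus strand: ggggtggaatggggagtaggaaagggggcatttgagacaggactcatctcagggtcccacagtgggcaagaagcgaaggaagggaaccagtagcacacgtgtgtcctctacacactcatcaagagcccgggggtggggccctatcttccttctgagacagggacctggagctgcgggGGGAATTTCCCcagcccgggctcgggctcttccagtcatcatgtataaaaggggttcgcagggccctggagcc
Ccl20, chr1:83116516-83116765, plus strand: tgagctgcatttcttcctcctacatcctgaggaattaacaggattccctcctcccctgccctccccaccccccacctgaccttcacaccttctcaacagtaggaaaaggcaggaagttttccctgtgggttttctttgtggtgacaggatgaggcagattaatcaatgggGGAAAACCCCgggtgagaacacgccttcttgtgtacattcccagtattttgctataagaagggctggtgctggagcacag
Csf1, chr3:107760470-107760719, minus strand: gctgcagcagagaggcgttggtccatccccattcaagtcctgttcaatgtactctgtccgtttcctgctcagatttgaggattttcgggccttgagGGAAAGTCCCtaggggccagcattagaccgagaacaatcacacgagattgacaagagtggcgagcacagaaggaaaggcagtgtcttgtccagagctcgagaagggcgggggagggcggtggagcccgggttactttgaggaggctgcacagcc
Cxcl10, chr5:92348890-92349139, minus strand: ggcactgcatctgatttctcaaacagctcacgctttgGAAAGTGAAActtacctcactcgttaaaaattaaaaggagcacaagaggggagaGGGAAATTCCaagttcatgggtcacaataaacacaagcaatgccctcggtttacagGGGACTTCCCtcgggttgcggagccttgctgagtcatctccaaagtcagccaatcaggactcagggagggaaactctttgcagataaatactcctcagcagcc

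Fibrillar collagen was compared with non-fibrillar collagen first, the pair of conditions that the series design names. Cells in fibrillar collagen had lower Ccl2, Ccl5 and Cxcl16, chemokines that draw monocytes and T cells, and higher Csf1, the growth factor of macrophages. A gene passed when its limma p-value, adjusted by Benjamini-Hochberg over all 19938 genes, was under 0.05. Of the 37 members 1 was higher, 3 were lower and 33 did not pass, which is 10.8% of members against 6.4% of all genes (2.71% higher and 3.69% lower). At an unadjusted p under 0.05 there were 11 members. In bulk RNA, fewer cells that express a gene and less RNA per cell cannot be told apart.

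Ccl2, the main attractant of inflammatory monocytes through Ccr2, was at 8.61, 8.90 and 8.94 log2 units in fibrillar collagen replicates 1 to 3, at 9.38, 9.95 and 9.51 in non-fibrillar collagen and at 9.34, 9.37 and 9.42 in Matrigel. All fibrillar arrays lay under all others, while the non-fibrillar and Matrigel arrays overlapped. It was 1.74-fold lower in fibrillar collagen than in non-fibrillar (log2 difference -0.80 ± 0.160 SE, n = 3 per group, limma adjusted p = 0.0389). Ccl5, which attracts T cells and monocytes, was at 8.64, 8.67 and 8.56 in fibrillar collagen, at 9.21, 9.16 and 8.98 in non-fibrillar collagen and at 8.95, 8.86 and 8.86 in Matrigel. The 3 groups did not overlap, with Matrigel in the middle. Ccl5 was 1.41-fold lower in fibrillar collagen (-0.49 ± 0.068, limma adjusted p = 0.0149).

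Cxcl16, a membrane-bound chemokine for Cxcr6 that is also a scavenger receptor for oxidised lipoprotein, was at 8.25, 8.18 and 8.12 in fibrillar collagen, at 8.70, 8.72 and 8.50 in non-fibrillar collagen and at 7.91, 7.71 and 7.72 in Matrigel. Its groups did not overlap, and the order differed from that of Ccl5: Matrigel was lowest and fibrillar collagen lay between. Cxcl16 was 1.37-fold lower in fibrillar collagen than in non-fibrillar (-0.46 ± 0.070, limma adjusted p = 0.0193). Csf1 was at 8.08, 8.13 and 8.07 in fibrillar collagen, at 7.80, 7.63 and 7.78 in non-fibrillar collagen and at 7.80, 7.90 and 7.87 in Matrigel. The fibrillar arrays were the highest 3 of the 9. Csf1 was 1.28-fold higher than in non-fibrillar collagen (0.36 ± 0.053, limma adjusted p = 0.0171).

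These calls depended on having all 6 arrays. Without fibrillar replicate 1, 2 or 3 or non-fibrillar replicate 1, limma called 0 of the 37 members, with 7 to 10 at an unadjusted p under 0.05; without non-fibrillar replicate 2 it called only Csf1, and without non-fibrillar replicate 3 only Ccl5 and Cxcl16. The adjusted p in these refits was 0.0717 to 0.114 for Ccl2, 0.0304 to 0.0781 for Ccl5, 0.0314 to 0.0891 for Cxcl16 and 0.0479 to 0.0761 for Csf1, and each difference kept its sign. Calls over all genes fell from 1277 to between 150 and 569. With replicate number as a block, 7 members passed: the same 4, and also, all lower in fibrillar collagen, Ccl20 (-0.48, limma adjusted p = 0.213 without and 0.0267 with the block), Csf3 (-0.44, 0.0734 and 0.0468) and Cxcl10 (-0.24, 0.164 and 0.0417).

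**Figure D2:**
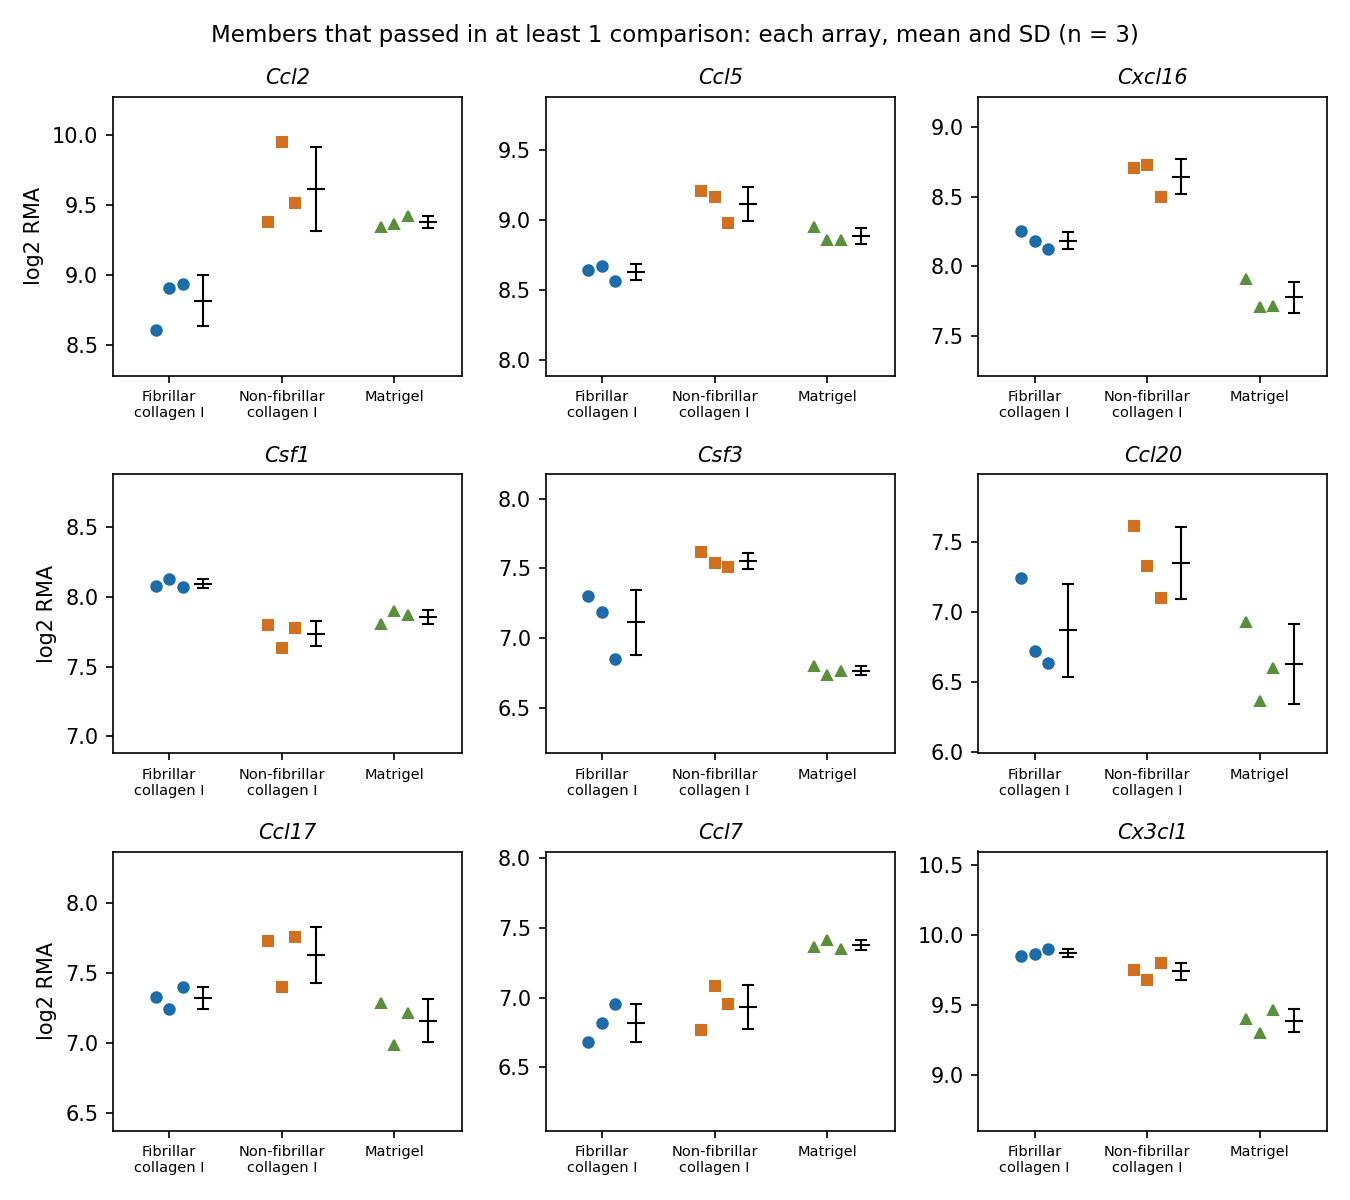
The 9 members that passed in at least 1 comparison, with each array as a point and the mean ± SD (n = 3) beside it (y axis, log2 RMA; every panel spans 2 log2 units). Ccl2 and Ccl5 are lowest and Csf1 highest in fibrillar collagen; Cxcl16, Csf3, Ccl20 and Ccl17 have their highest mean in non-fibrillar collagen; Ccl7 is highest and Cx3cl1 lowest in Matrigel.

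In the comparison of fibrillar collagen with Matrigel, Cx3cl1, Cxcl16 and Csf1 were higher in the collagen and Ccl7 was lower. Of the 37 members 3 were higher, 1 was lower and 33 did not pass, 10.8% against 3.82% of all genes (1.45% higher and 2.37% lower); 8 members had an unadjusted p under 0.05. The comparisons share arrays, so they are not independent of each other. Accession numbers of the Matrigel arrays come after those of the collagen arrays, and anything that goes with this order cannot be told apart from the matrix.

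Cx3cl1, or fractalkine, a membrane-tethered chemokine that holds cells bearing Cx3cr1, was at 9.85, 9.86 and 9.90 in fibrillar collagen, at 9.75, 9.68 and 9.80 in non-fibrillar collagen and at 9.39, 9.30 and 9.46 in Matrigel. Every collagen array lay above every Matrigel array. It was 1.40-fold higher in fibrillar collagen than in Matrigel (0.49 ± 0.052, limma adjusted p = 0.00121). Ccl7, which like Ccl2 acts on monocytes through Ccr2, was at 6.68, 6.82 and 6.96 in fibrillar collagen, at 6.76, 7.08 and 6.95 in non-fibrillar collagen and at 7.36, 7.41 and 7.35 in Matrigel. The collagen groups overlapped and lay wholly under Matrigel. Ccl7 was 1.47-fold lower in fibrillar collagen than in Matrigel (-0.56 ± 0.087, limma adjusted p = 0.00828). Cx3cl1 and Ccl7 kept their calls under all 13 alternatives.

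Cxcl16 was 1.32-fold higher in fibrillar collagen than in Matrigel (0.41 ± 0.075, limma adjusted p = 0.0182) and Csf1 1.18-fold higher (0.24 ± 0.052, limma adjusted p = 0.0354). The Csf1 call was lost whichever of the 6 arrays was left out (adjusted p 0.0749 to 0.107). Cxcl16 lost it without fibrillar replicate 1 or 2 or Matrigel replicate 2 or 3 (0.0605 to 0.0755). Without fibrillar replicate 1 or 2 or Matrigel replicate 2 or 3 the count of members called fell from 4 to 2. Ccl2 and Ccl5 did not pass in the fit of 9 arrays: Ccl2 differed by -0.56 ± 0.135 (limma adjusted p = 0.0538) and Ccl5 by -0.26 ± 0.064 (limma adjusted p = 0.0567), and neither gene's fibrillar arrays overlapped the Matrigel arrays. Both passed in 4 of the 13 alternatives: with replicate number as a block (limma adjusted p = 0.0255 and 0.0258), in a fit of these 6 arrays (0.0324 and 0.0497), without genes near background and with a trended prior. With any 1 of the arrays left out neither passed (0.0882 to 0.155 and 0.0946 to 0.160). Without overlap between groups there were 8 members here, against 20.4% of all genes, and 10 in the collagen comparison, against 25.2%.

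Between non-fibrillar collagen and Matrigel, Cxcl16, Csf3, Ccl20, Ccl17, Cx3cl1 and Ccl5 were higher in the collagen and Ccl7 was lower. Thus 6 of 37 were higher, 1 was lower and 30 did not pass, 18.9% of members against 13.8% of all genes (6.75% higher and 7.07% lower). At an unadjusted p under 0.05 there were 8, and 9 had groups without overlap, against 28.4% of all genes.

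Csf3, the growth factor of neutrophils, was at 7.30, 7.19 and 6.85 in fibrillar collagen, at 7.62, 7.54 and 7.51 in non-fibrillar collagen and at 6.80, 6.74 and 6.76 in Matrigel. Its groups did not overlap, and fibrillar replicate 3 lay just above the Matrigel arrays. Csf3 was 1.73-fold higher in non-fibrillar collagen than in Matrigel (0.79 ± 0.097, limma adjusted p = 6.8e-04), while fibrillar collagen differed from Matrigel by 0.35 ± 0.097 (limma adjusted p = 0.0858). The latter difference passed with the replicate block (0.0496) and without fibrillar replicate 3 (0.0052). Cxcl16 was 1.82-fold higher (0.86 ± 0.075, limma adjusted p = 1.0e-04) and was the 1 member that passed in all 3 comparisons. Cx3cl1 was 1.28-fold higher (0.36 ± 0.052, limma adjusted p = 0.00178) and Ccl7 1.36-fold lower (-0.44 ± 0.087, limma adjusted p = 0.00822). These 4 genes kept their calls under all 13 alternatives.

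Ccl20, the ligand of Ccr6 on dendritic cells and T cells, was at 7.25, 6.72 and 6.64 in fibrillar collagen, at 7.62, 7.33 and 7.10 in non-fibrillar collagen and at 6.93, 6.36 and 6.60 in Matrigel. Fibrillar collagen overlapped both other groups, which did not overlap each other. Ccl20 was 1.65-fold higher in non-fibrillar collagen than in Matrigel (0.72 ± 0.192, limma adjusted p = 0.0339); the call was lost without non-fibrillar replicate 1 or 2 or Matrigel replicate 2 or 3 (0.0891 to 0.132). Ccl17, a ligand of Ccr4 on T cells, was at 7.33, 7.24 and 7.40 in fibrillar collagen, at 7.73, 7.40 and 7.76 in non-fibrillar collagen and at 7.29, 6.98 and 7.21 in Matrigel. Non-fibrillar replicate 2 was level with the highest fibrillar array. Ccl17 was 1.38-fold higher in non-fibrillar collagen than in Matrigel (0.47 ± 0.105, limma adjusted p = 0.0152), and lost the call without non-fibrillar replicate 1 or 3 or Matrigel replicate 2 (0.0591 to 0.0613). Ccl5 was 1.17-fold higher (0.23 ± 0.064, limma adjusted p = 0.0413), and lost it without non-fibrillar replicate 1 or 2 or Matrigel replicate 2 or 3 (0.119 to 0.135). In a fit of these 6 arrays alone, the form used for the collagen comparison, 5 members passed, and Ccl17 (0.0515) and Ccl5 (0.0825) did not. Without non-fibrillar replicate 1 or Matrigel replicate 2 the count of members called fell from 7 to 4.

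**Figure D3:**
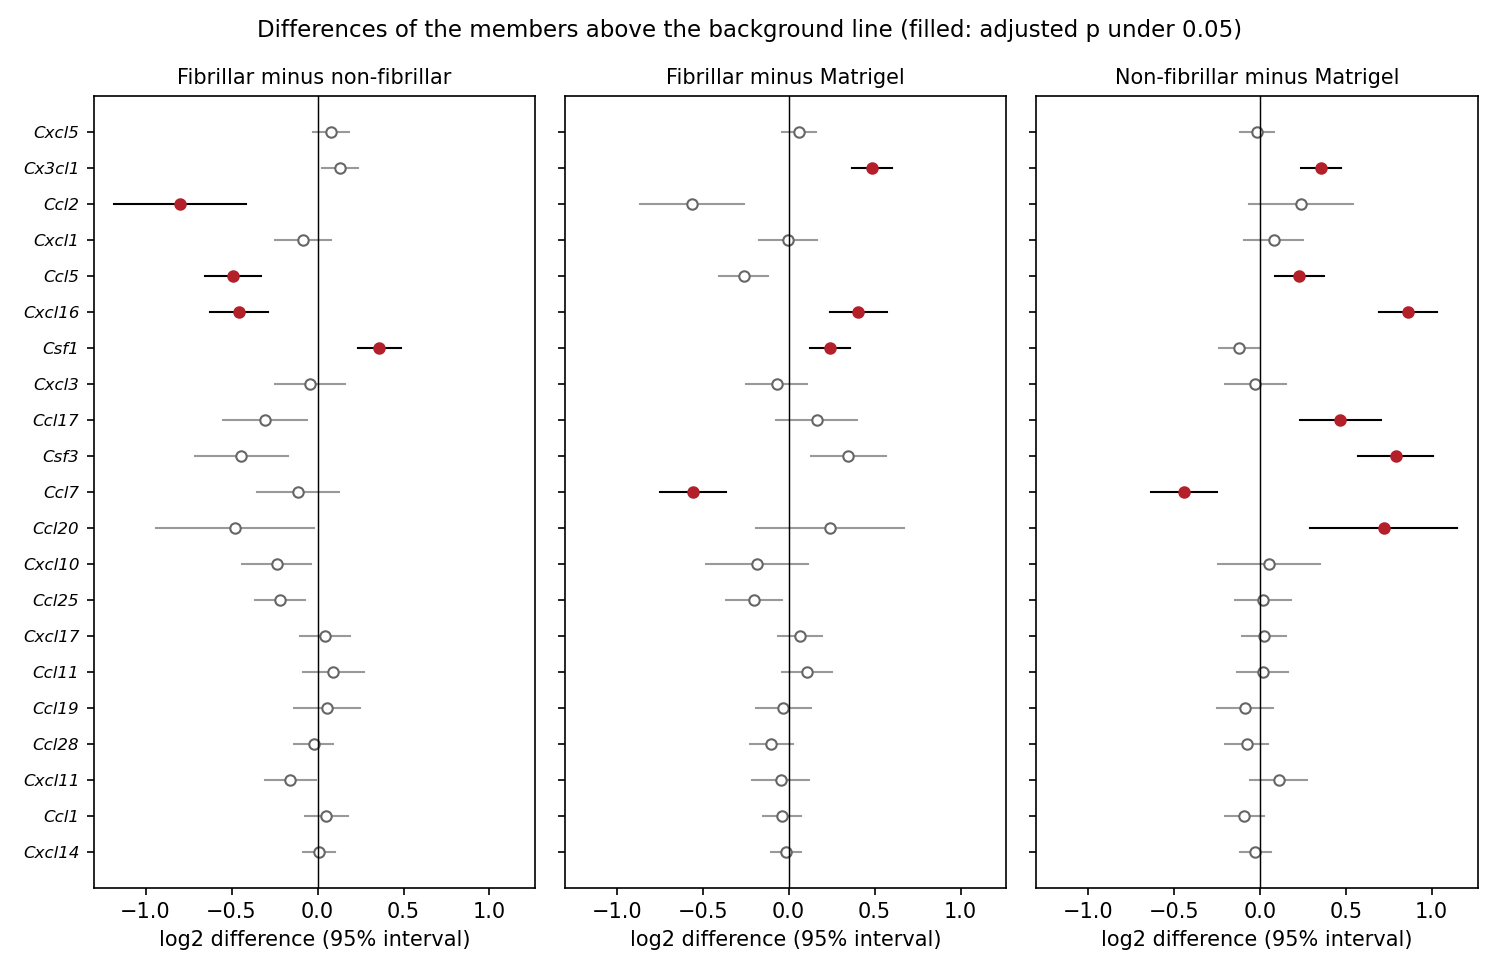
Log2 differences of the 21 members above the background line in the 3 comparisons (x axis, with 95% intervals from limma; 1 row per gene). Filled points passed at an adjusted p under 0.05; Cxcl16 is filled in all 3 panels, and the rows of Cxcl1, Cxcl3 and Cxcl5 hold only open points close to 0.

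Of the neutrophil chemokines taken by the symbol rule, those above background (Cxcl1, Cxcl3 and Cxcl5) did not pass in any comparison. Cxcl5, made by epithelial cells and known to attract neutrophils through Cxcr2, was at 11.36, 11.45 and 11.33 in fibrillar collagen, at 11.28, 11.32 and 11.30 in non-fibrillar collagen and at 11.35, 11.27 and 11.34 in Matrigel. Cxcl1, a ligand of the same receptor, was at 9.53, 9.27 and 9.43, at 9.48, 9.53 and 9.47, and at 9.53, 9.28 and 9.43 in the same order of groups. Cxcl3, a close relative, was at 8.03, 7.76 and 7.93, at 7.93, 8.06 and 7.86, and at 8.07, 7.93 and 7.93. For Cxcl1 and Cxcl3 all 3 groups overlapped, and for Cxcl5 the fibrillar arrays lay just above the non-fibrillar ones. The 95% interval of the difference between fibrillar and non-fibrillar collagen was -0.028 to 0.181 for Cxcl5, -0.248 to 0.077 for Cxcl1 and -0.246 to 0.159 for Cxcl3. Against Matrigel it was -0.041 to 0.162, -0.175 to 0.166 and -0.248 to 0.107 for fibrillar collagen, and -0.118 to 0.085, -0.090 to 0.251 and -0.204 to 0.150 for non-fibrillar collagen. Cxcl2, which lies beside Cxcl1 and holds the same 11-base run in its promoter, was near background in every group, at 4.12 to 4.39. Probe sets of these paralogs may read related copies.

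The interferon-induced ligands of Cxcr3 on T cells also did not pass in the fits without a replicate block. Cxcl10 was at 6.78, 6.78 and 6.60 in fibrillar collagen, at 7.07, 7.0 and 6.80 in non-fibrillar collagen and at 7.18, 6.59 and 6.94 in Matrigel. The collagen groups did not overlap, and the Matrigel arrays spanned the range of both. Cxcl11 was at 5.57, 5.37 and 5.53 in fibrillar collagen, at 5.60, 5.64 and 5.71 in non-fibrillar collagen and at 5.58, 5.65 and 5.39 in Matrigel, less than 1 log2 unit over the background line, and Cxcl9 lay near background. Between the collagens Cxcl10 differed by -0.24 ± 0.084 (limma adjusted p = 0.164) and Cxcl11 by -0.16 ± 0.061 (limma adjusted p = 0.202). With replicate number as a block Cxcl10 passed (limma adjusted p = 0.0417) and Cxcl11 did not (limma adjusted p = 0.174).

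Ccl2 and Ccl7 head a row of 6 adjacent members on chromosome 11 in the RefSeq gene order (GRCm38.p6). Between the collagens Ccl2 differed by -0.80 and Ccl7 by -0.11 ± 0.100 (limma adjusted p = 0.557), and between non-fibrillar collagen and Matrigel they differed by 0.24 ± 0.135 (limma adjusted p = 0.322) and -0.44. Between fibrillar collagen and Matrigel their differences were alike in size, -0.56 for each. Ccl22, Cx3cl1 and Ccl17 form a row of 3 on chromosome 8, where Ccl22 lay near background. Differences between neighbouring genes were not tested.

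The other 7 members above the line passed in no comparison. Ccl25, a thymic and intestinal ligand of Ccr9, was at 6.63, 6.41 and 6.56 in fibrillar collagen, at 6.77, 6.75 and 6.75 in non-fibrillar collagen and at 6.88, 6.64 and 6.69 in Matrigel. Fibrillar collagen was the lowest group without overlap, by -0.22 ± 0.060 against non-fibrillar collagen (limma adjusted p = 0.0892) and by -0.20 ± 0.073 against Matrigel (limma adjusted p = 0.175). The second Ccl25 probe set ranged from 6.38 to 6.58 and did not show this separation. Ccl1, a ligand of Ccr8, was at 5.58, 5.51 and 5.48, at 5.50, 5.38 and 5.53, and at 5.56, 5.60 and 5.52 in the same order of groups. The eosinophil attractant Ccl11 was at 5.86, 5.86 and 6.12, at 5.86, 5.85 and 5.86, and at 5.84, 5.86 and 5.82. Ccl19, a ligand of Ccr7, was at 5.78, 5.78 and 5.82, at 5.90, 5.58 and 5.73, and at 5.77, 5.85 and 5.86. These groups overlapped in each comparison. The mucosal Ccl28 was at 5.63, 5.51 and 5.66, at 5.63, 5.60 and 5.63, and at 5.79, 5.67 and 5.63. Cxcl14, an epithelial chemokine, was at 5.18, 5.26 and 5.24, at 5.24, 5.18 and 5.24, and at 5.25, 5.24 and 5.24. Cxcl17, a mucosal chemokine, was at 6.01, 6.20 and 5.98, at 6.02, 6.02 and 6.01, and at 6.01, 5.96 and 6.02. Their groups overlapped as well.

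The 16 members near background were Ccl3, Ccl4, Ccl6, Ccl8, Ccl9, Ccl12, Ccl22, Ccl24, Ccl26, Csf2, Cxcl2, Cxcl9, Cxcl12, Cxcl13, Cxcl15 and Xcl1, with values from 3.89 to 5.25 over all arrays. They include Csf2, or GM-CSF, and Cxcl12, the stromal ligand of Cxcr4. Limma called 0 of them in any comparison, and 0 had an unadjusted p under 0.05. Their differences lay between -0.144 and 0.12 log2 units, and a member near background cannot show how much lower it is in 1 group than in another.

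Receptors were mostly near background. Of 22 measured chemokine receptors 8 lay above the line (Ccr7, Ccr10, Ccrl2, Cxcr3, Cxcr4, Cx3cr1, Ackr2 and Ackr3), against 70.1% of all genes, and only Ackr3 passed. Over all genes 6.4% passed between the collagens, 3.82% between fibrillar collagen and Matrigel and 13.8% between non-fibrillar collagen and Matrigel. Ackr3, an atypical receptor that removes Cxcl11 and Cxcl12, was at 7.69, 7.79 and 7.77 in fibrillar collagen, at 8.10, 8.18 and 8.19 in non-fibrillar collagen and at 7.53, 7.54 and 7.45 in Matrigel. The groups did not overlap. It was 1.33-fold lower in fibrillar collagen than in non-fibrillar (-0.41 ± 0.044, limma adjusted p = 0.00834), differed by 0.24 ± 0.047 between fibrillar collagen and Matrigel (limma adjusted p = 0.0227), and was 1.57-fold higher in non-fibrillar collagen than in Matrigel (0.65 ± 0.047, limma adjusted p = 3.4e-05). The collagen call was lost without fibrillar replicate 3 or non-fibrillar replicate 2, the fibrillar to Matrigel call without fibrillar replicate 2 or 3 or Matrigel replicate 2 or 3, and also in a fit of those 6 arrays alone, with adjusted p up to 0.0513 and 0.0764. Of 5 receptors of the colony-stimulating factors, Csf1r, which binds Csf1, was near background at 4.72 to 4.84, and 1 passed: Csf2rb2 was lower in non-fibrillar collagen than in Matrigel (-0.39 ± 0.084, limma adjusted p = 0.0125; 0.0527 without Matrigel replicate 2), with means of 4.92 and 5.31 on either side of the line.

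Among 7 related ligands outside the symbol rule, Ppbp, the platelet member of the Cxcr2 ligands that lies in the same gene cluster, was at 6.21, 5.98 and 5.94 in fibrillar collagen, at 6.60, 6.69 and 6.55 in non-fibrillar collagen and at 6.65, 6.23 and 6.42 in Matrigel. It was 1.48-fold lower in fibrillar collagen than in non-fibrillar (-0.57 ± 0.080, limma adjusted p = 0.0150), the only gene of this list to pass there, and kept the call in 1 of the 6 refits that left out an array (adjusted p up to 0.0771). Kitl, the growth factor of mast cells and early blood cells, was lower than in Matrigel both in fibrillar (-0.54 ± 0.117, limma adjusted p = 0.0340; up to 0.12 with 1 array left out, called in 1 of 6 refits) and in non-fibrillar collagen (-0.98 ± 0.117, limma adjusted p = 6.0e-04). The fibrillar call of Kitl was also lost in a fit of the arrays of those 2 groups alone. Mif was higher in non-fibrillar collagen than in Matrigel (0.15 ± 0.043, limma adjusted p = 0.0405), but in 0 of its 6 refits. It was also not called after quantile normalization again or in a fit of the arrays of these 2 groups alone (limma adjusted p up to 0.127).

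**Figure D4:**
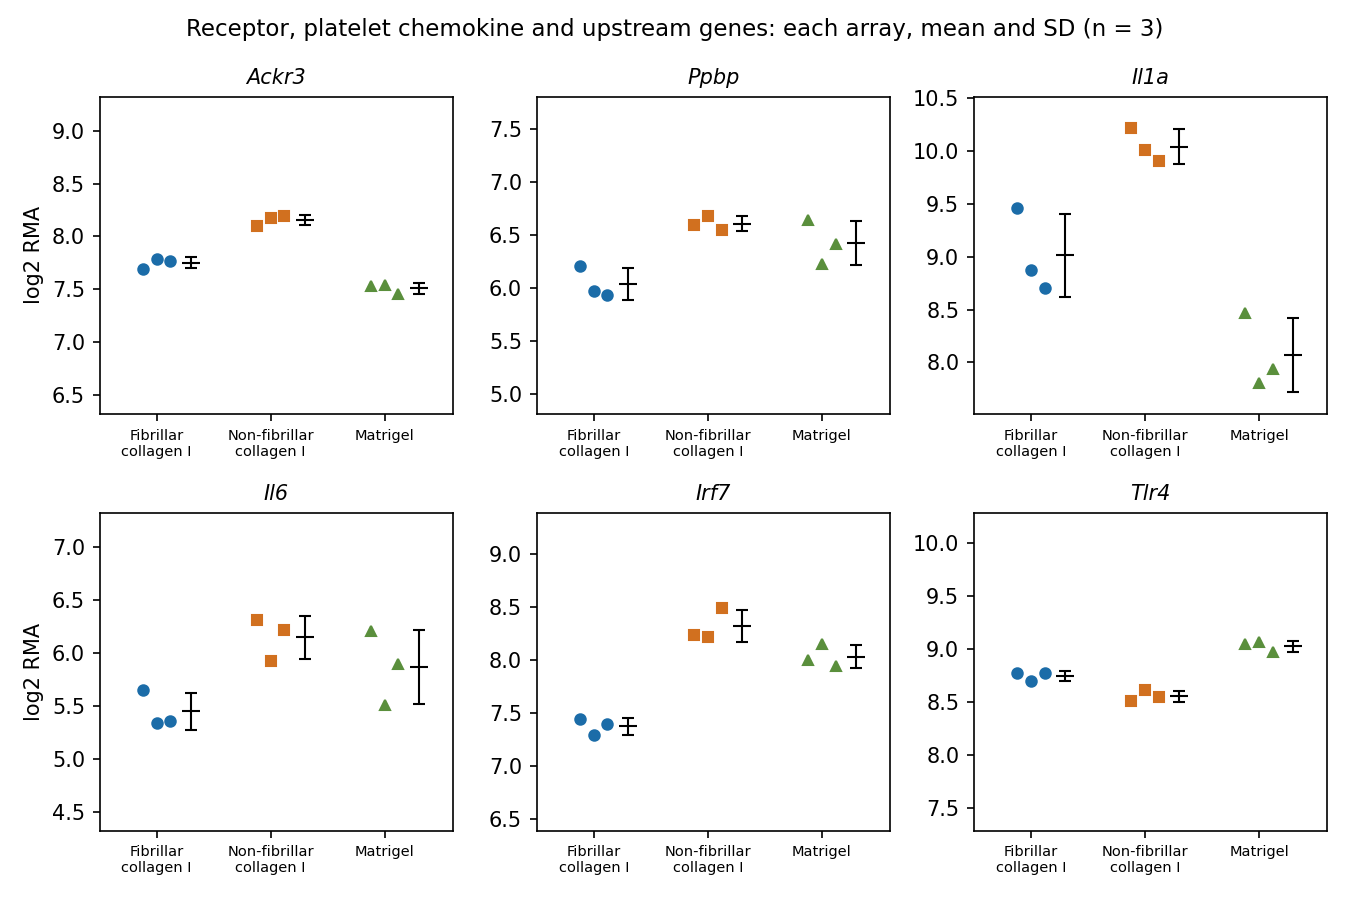
Other genes of the pathway on each array, with the mean ± SD (n = 3) beside the points (y axis, log2 RMA; every panel spans the same width): the receptor Ackr3, the platelet chemokine Ppbp, the cytokines Il1a and Il6, the interferon regulator Irf7 and the receptor Tlr4. Il1a has the widest spread between groups, from a mean of 8.07 in Matrigel to 10.04 in non-fibrillar collagen, and Tlr4 is highest in Matrigel.

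Signals known to induce chemokines are described here by list, and their part in the chemokine results was not tested. Of 18 cytokines and receptors 0 passed as higher in fibrillar collagen than in its non-fibrillar form and 4 as lower. Over all genes 2.71% were higher and 3.69% lower. The cytokine Il1a, an alarm signal that induces many of these ligands, was at 9.46, 8.87 and 8.70 in fibrillar collagen, at 10.21, 10.003 and 9.90 in non-fibrillar collagen and at 8.47, 7.81 and 7.94 in Matrigel. All 3 groups were apart, in the order of Cxcl16 and Csf3. Ccl20 and Ccl17 had the same order of group means, but their fibrillar arrays overlapped both other groups. Ccl2, Ccl5, Ccl7, Csf1 and Cx3cl1 had other orders. Il1a differed by -1.03 ± 0.195 between the collagens (limma adjusted p = 0.0329; called in 1 of 6 refits, up to 0.124) and by 1.97 ± 0.209 between non-fibrillar collagen and Matrigel (limma adjusted p = 3.1e-04). The cytokine Il6 was lower in fibrillar collagen than in non-fibrillar (-0.70 ± 0.124, limma adjusted p = 0.0286; called in 1 of 6 refits, up to 0.117), as was Tlr3, a sensor of double-stranded RNA (-0.26 ± 0.043, limma adjusted p = 0.0231; called in 0 of 6 refits, up to 0.0856).

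Against Matrigel 1 gene of this list was higher and 3 lower in fibrillar collagen, and 2 were higher and 4 lower in non-fibrillar collagen. Over all genes 3.82% passed in the first of these comparisons and 13.8% in the second. Il17rc, a chain of the receptor for interleukin-17, was lower in fibrillar (-0.58 ± 0.057, limma adjusted p = 8.2e-04) and in non-fibrillar collagen (-0.56 ± 0.057, limma adjusted p = 2.6e-04). Tlr4, the receptor for bacterial lipopolysaccharide, was lower in both as well (-0.28 ± 0.046, limma adjusted p = 0.0110, and 0.0504 without Matrigel replicate 2; -0.47 ± 0.046, limma adjusted p = 2.1e-04), and Tlr3 was lower in fibrillar collagen (-0.31 ± 0.043, limma adjusted p = 0.00521).

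Of 16 measured NF-kB factors and feedback genes limma called 0 between the collagens, with 1 at an unadjusted p under 0.05; against Matrigel 1 was higher in fibrillar and 2 were higher in non-fibrillar collagen. Over all genes 6.4%, 3.82% and 13.8% passed in these comparisons. The genes called were the inhibitor Nfkbie in both (0.39 ± 0.085, limma adjusted p = 0.0335, called in 1 of 6 refits; 0.39 ± 0.085, limma adjusted p = 0.0140, and 0.0553 without non-fibrillar replicate 3) and the feedback enzyme Tnfaip3 in non-fibrillar collagen (0.24 ± 0.064, limma adjusted p = 0.0349, called in 2 of 6 refits). In fits of the arrays of the 2 groups alone, the Nfkbie call in fibrillar collagen and the Tnfaip3 call were lost. Of 9 genes for the decay of chemokine transcripts, the mRNA-destabilising Zfp36l1 was higher in fibrillar collagen than in non-fibrillar (0.20 ± 0.038, limma adjusted p = 0.0354). That call held in 0 of 6 refits and was lost with the replicate block, in a fit of all 9 arrays and after centring (limma adjusted p up to 0.117). Zfp36l1 was lower in non-fibrillar collagen than in Matrigel (-0.32 ± 0.056, limma adjusted p = 0.00426).

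Interferon regulators were lower in fibrillar collagen for 2 of the 5 measured against each other matrix. Over all genes 3.69% were lower than in non-fibrillar collagen and 2.37% lower than in Matrigel. Irf7, which drives interferon genes, was at 7.44, 7.29 and 7.40 in fibrillar collagen, at 8.24, 8.22 and 8.49 in non-fibrillar collagen and at 8.0, 8.15 and 7.94 in Matrigel. The groups did not overlap, in the order of Ccl5. By group means alone, Ccl2, Ccl25, Cxcl1, Cxcl10 and Cxcl11 had this order too, with overlap between some of their groups. Cxcl16, Csf3, Ccl20, Ccl17, Ccl7, Csf1 and Cx3cl1 had other orders. A link between Irf7 and these members was not tested. Irf7 was 1.92-fold lower in fibrillar collagen than in non-fibrillar (-0.94 ± 0.083, limma adjusted p = 0.00534), lower in fibrillar collagen than in Matrigel (-0.66 ± 0.082, limma adjusted p = 0.00286) and higher in non-fibrillar collagen than in Matrigel (0.29 ± 0.082, limma adjusted p = 0.0470, called in 1 of 6 refits, and lost with the replicate block, at 0.0655, and in a fit of these 6 arrays, at 0.0948). Irf9 was lower in fibrillar collagen than in non-fibrillar (-0.34 ± 0.074, limma adjusted p = 0.0471). That call held in 0 of 6 refits and was lost with the replicate block (limma adjusted p up to 0.159 over its alternatives). Stat2 was lower in fibrillar collagen than in Matrigel (-0.22 ± 0.051, limma adjusted p = 0.0431, called in 1 of 6 refits). It was not called after quantile normalization again, after centring or in a fit of the arrays of these 2 groups alone (limma adjusted p up to 0.122).

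Markers of other cell types were read from the same arrays. Over all genes 70.1% lay above the line. The shares that passed were 6.4% between the collagens, 3.82% between fibrillar collagen and Matrigel and 13.8% between non-fibrillar collagen and Matrigel. Of 10 macrophage markers 3 lay above the line (Tyrobp, Cd14 and Cd68). Those near background included Adgre1, Ptprc and Csf1r, with Adgre1 at 3.82 to 4.09 and Ptprc at 4.72 to 5.12. Cd68, also a general lysosomal protein, was higher in fibrillar collagen than in non-fibrillar (0.83 ± 0.081, limma adjusted p = 0.00673) and lower than in Matrigel (-0.55 ± 0.081, limma adjusted p = 0.00680). Its largest difference was between non-fibrillar collagen and Matrigel (-1.38 ± 0.081, limma adjusted p = 1.1e-05). Cd14 was lower in fibrillar collagen than in non-fibrillar (-0.37 ± 0.079, limma adjusted p = 0.0466, called in 0 of 6 refits) and higher in non-fibrillar collagen than in Matrigel (0.28 ± 0.073, limma adjusted p = 0.0331, called in 2 of 6). The mean of the macrophage list was 5.33 to 5.40 on the fibrillar arrays, 5.29 to 5.32 on the non-fibrillar and 5.41 to 5.44 on the Matrigel arrays. Of 6 T cell markers 2 lay above the line, and limma called 0 in any comparison, with 0 at an unadjusted p under 0.05. Their list means were 4.94 to 4.98, 4.85 to 4.99 and 4.89 to 4.94 in the same order of groups.

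All 6 mammary epithelial markers lay above the line, with list means of 9.50 to 9.53 in fibrillar collagen, 9.57 to 9.58 in non-fibrillar collagen and 9.24 to 9.28 in Matrigel. The keratin Krt7 had the order of Cxcl16, lower in fibrillar collagen than in non-fibrillar (-0.30 ± 0.034, limma adjusted p = 0.00918; 0.0502 without fibrillar replicate 3) and higher in each collagen than in Matrigel (0.90 ± 0.039, limma adjusted p = 8.7e-06; 1.20 ± 0.039, limma adjusted p = 5.6e-07). Krt18 was higher in each collagen than in Matrigel (0.23 ± 0.040, limma adjusted p = 0.0144, and 0.0586 without Matrigel replicate 2; 0.28 ± 0.040, limma adjusted p = 0.00151), as was Epcam in non-fibrillar collagen (0.28 ± 0.051, limma adjusted p = 0.00582). Of 6 fibroblast markers 4 lay above the line, and the receptor Pdgfra was higher in fibrillar collagen than in non-fibrillar (0.67 ± 0.095, limma adjusted p = 0.0153, called in 2 of 6 refits) and lower in non-fibrillar collagen than in Matrigel (-1.01 ± 0.094, limma adjusted p = 1.5e-04). Of 6 endothelial markers 4 lay above it, and Kdr was lower in non-fibrillar collagen than in Matrigel (-0.47 ± 0.085, limma adjusted p = 0.00553). The part of these marker levels in the chemokine results was not tested.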

How the data were processed

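Gene expression of D2.OR cells was measured on 9 Affymetrix arrays. The authors deposited a log2 value for each probe set. Affymetrix Power Tools and RMA are named in the submitters' processing notes, with no version in the sources used here. RMA pulls arrays towards one distribution, which can hide a shift of most genes. The table held 35512 probe sets with column medians from 5.98 to 6.05. The platform annotation gave 21789 a single symbol, 1621 several and left 12102 unlisted. The probe set with the highest mean stood for each of 19938 genes (Ccl19 had 5 and Ccl25 had 2); 7 probe sets shared by copies of Ccl21 or Ccl27 carry several symbols and were not used. All 37 members matched RefSeq gene identifiers with the same symbol.

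Differences were fitted by lmFit and eBayes of limma 3.58.1 (R 4.3.3). Tests were two-sided and p-values were adjusted by Benjamini-Hochberg over all genes. The collagen comparison used its own 6 arrays and the comparisons with Matrigel all 9. The script was tested on simulated data. The members and lists were chosen with earlier results of these data known. Values are given for each member above background or called, and for at most 3 called genes per list and comparison with the smallest p. The number of arrays limits the precision.

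Deviations from group means correlated across genes between same-numbered arrays of the collagen groups (r = 0.221, 0.143 and 0.242 for replicates 1, 2 and 3). Between fibrillar collagen and Matrigel r was 0.253, 0.103 and 0.0968. Between non-fibrillar collagen and Matrigel it was 0.125, 0.0449 and 0.135. Arrays with different numbers were not compared, so these values do not establish a pairing, and no label states one. The main fits had no replicate block, and the block was run as an alternative. Alternatives were the replicate block, the arrays in the fit, quantile normalization again, centring on array medians, leaving out genes near background, averaging probe sets, a trended robust prior and leaving out each array.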

Additional observations from a re-analysis of the deposited data

How the results depend on the processing

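Of the 15 calls of a member in a comparison, 0 changed direction under any alternative. The count of members called stayed within 1.5 times its main value under every alternative except the replicate block between the collagens (7 against 4) and refits without 1 array, where it was 0 to 2 between the collagens (main 4), 2 to 4 between fibrillar collagen and Matrigel (main 4) and 4 to 7 between non-fibrillar collagen and Matrigel (main 7). Of these calls, 6 held under all 13 alternatives and 9 were lost under at least 1. With replicate number as a block, the comparisons with Matrigel called 6 and 7 members, and the Csf1 call in fibrillar collagen against Matrigel was lost (adjusted p = 0.0534), while Ccl2, Ccl5 and Csf3 were gained there (0.0255, 0.0258 and 0.0496). Members near background were 7 with the 90th percentile of the receptor genes as the line and 16 in the main setting. Signal over background limits members close to the line.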

Other observations

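Many values recurred exactly between arrays. Of the 37 members, 20 had a value that was equal to 5 decimals on at least 2 of the 9 arrays, and over all genes the share was 59.6%. It was 80.8% of genes with a mean under 5 log2 units and 25.6% of those over 9. Of the members with a repeated value 13 lay near background and 7 above the line: Ccl5, Ccl11, Ccl19, Ccl28, Cxcl3, Cxcl14 and Cxcl17. Cxcl3 was at 7.92988 on arrays of all 3 groups, so its small differences rest partly on equal values. Csf2 on the 3 non-fibrillar arrays (4.49) and Cxcl15 on the 3 Matrigel arrays (4.07) had no spread at all.

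Replicate 1 was the highest array for Ccl20 in each of the 3 groups, at 7.25, 7.62 and 6.93. The same held for Csf3, Cxcl10, Ccl25 and the near-background Ccl4 among the members. It also held for Il1a, at 9.46, 10.21 and 8.47, and for Il6. How common this is over all genes was not counted, and these genes were singled out after their values were seen.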
